A study of Felis catus with 25 samples.

Results

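The genes described here are 10 components of the contractile apparatus of smooth muscle, chosen by name. They comprise the actins ACTA2, ACTG2 and ACTC1, the tropomyosins TPM1 and TPM2, the thin filament proteins CNN1, CALD1 and LMOD1, the myosin light chain MYL9 and the actin crosslinker FLNA. All 10 were found among the 13949 gene symbols of the deposited count tables, and all 10 passed the filter on low counts, which left 10699 tested genes. Their RNA was measured by sequencing of polyadenylated RNA from cat (Felis catus) fibroblasts of the corneal stroma, grown on collagen-coated dishes. There were 25 libraries, 5 in each of 5 groups. The group FB consisted of quiescent fibroblasts, harvested at day 0 with no treatment. TGFb held cells harvested at day 2 after treatment with transforming growth factor beta 1 (TGFb1) at 1 ng/ml, the factor that turns stromal fibroblasts into myofibroblasts. In the other groups TGFb1 was withdrawn at day 2 and cells were kept with a drug to day 5. Trog received 7.5 uM troglitazone, an activator of PPAR-gamma, a lipid-sensing nuclear receptor. TrogGW received 7.5 uM troglitazone with 10 uM GW9662, which blocks PPAR-gamma. UK received 30 uM UK-5099, which inhibits the import of pyruvate into mitochondria. No untreated day-2 library and no drug-free day-5 library was analysed here, so the effects of TGFb1, of its withdrawal, of time in culture and of each drug cannot be told apart in comparisons between days. Trog and TrogGW shared the day and the troglitazone dose. The labels call the libraries biological replicates without naming donors or saying whether cultures were separate, so a p-value here speaks of the scatter among these libraries alone, which may be technical.

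Smooth muscle cells shorten when myosin motors pull on thin filaments of actin, and myofibroblasts build a related apparatus along their stress fibres. ACTA2, the alpha smooth muscle actin, is the usual marker of the corneal myofibroblast, the cell that contracts a stromal wound and that is associated with haze when it persists. Tropomyosin winds along the actin filament, caldesmon and calponin bind the filament and restrain myosin, leiomodin nucleates new filaments, and phosphorylation of the regulatory light chain switches myosin on. Many of these genes carry binding sites for serum response factor (SRF), whose coactivators of the MRTF family are held in the cytoplasm by free actin monomers. The set is not restricted to smooth muscle. ACTC1 encodes the actin of heart muscle, and TPM1, TPM2, CALD1, MYL9 and FLNA are also active in cells that are not muscle. TPM1, TPM2 and CALD1 make muscle and non-muscle forms by alternative splicing, which counts per gene do not separate.

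The libraries held 14.8 to 25.2 M counts. The 10 genes together took 2.11% to 2.23% of the counts of an FB library, 3.93% to 4.17% in TGFb, 0.5% to 0.669% in Trog, 0.424% to 0.533% in TrogGW and 1.96% to 2.34% in UK. Levels below are CPM, the counts of a gene per 1 M counts of the library total after that total was scaled by edgeR's TMM factors, as mean ± SD over 5 libraries, and changes are log2 fold changes ± SE. A gene was said to rise or fall at an adjusted p under 0.05 in the quasi-likelihood test of edgeR, adjusted by the method of Benjamini and Hochberg over all tested genes. TMM factors were 0.713 to 0.768 in TGFb and 1.28 to 1.38 in TrogGW, so that changes read from library totals alone were shifted, by -0.37 for the median gene in TGFb against FB and by 0.85 in TrogGW against TGFb. A library of the UK group, replicate 5, differed from its group: across genes, its correlations of log2 CPM with the other UK libraries were 0.852 to 0.868, against 0.988 or more for the other 46 pairs within a group. It also entered every comparison through the shared estimate of spread, and values without it are given where they matter. In these bulk libraries, fewer cells that express a gene and less RNA per cell cannot be told apart.

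All 10 contractile genes were higher in TGFb than in FB, by 1.48-fold for FLNA to 19.3-fold for ACTC1. Their median change was 1.78 against -0.02 for all tested genes, and 18% of all genes rose in this comparison. The groups did not overlap for any of the 10, as for 25.8% of all genes in that direction. With UK replicate 5 left out the 10 also rose, against 31.7% of all genes, while 34.3% of all genes fell.

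Among the actins, ACTA2 stood at 2102, 1795, 2096, 1847 and 1871 CPM in the FB libraries. In the TGFb libraries it stood at 9413, 9112, 8612, 9378 and 8498 CPM. The lowest TGFb library was therefore several times above the highest FB library, and the change was 2.21 ± 0.477 (edgeR adjusted p = 0.000638). ACTC1 started from 419.8, 410.0, 437, 430.3 and 459 CPM in FB and stood at 8813, 8528, 8106, 8479 and 7678 CPM in TGFb. This cardiac actin changed by 4.27 ± 0.373 (edgeR adjusted p = 2.24e-09) and ranked 24th from the top of all tested genes. ACTG2, the enteric smooth muscle actin, was far less counted, with 583 counts over the 5 FB libraries and 1672 over the TGFb libraries. It stood at 6.81, 5.19, 5.59, 6.63 and 5.72 CPM in FB and at 22.9, 21.5, 18.4, 21.5 and 20.3 CPM in TGFb, a change of 1.81 ± 0.27 (edgeR adjusted p = 8.47e-06). The coding sequences of these actins are nearly alike, and how reads that match several genes were counted is not given in the sources used here, so the split between the 3 actins is uncertain. Their summed counts changed by 2.87 ± 0.411 (edgeR adjusted p = 4.74e-06).

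The filament-binding genes rose with the actins. TPM1 went from 3832 ± 175 CPM in FB to 8610 ± 330 in TGFb (SD, n = 5), a change of 1.17 ± 0.15 (edgeR adjusted p = 9.79e-07). TPM2 stood at 836 to 935 CPM in FB and 3191 to 3554 in TGFb and changed by 1.89 ± 0.398 (edgeR adjusted p = 0.000508). LMOD1, the filament nucleator, went from 46.9 ± 4.73 to 226 ± 11.5 CPM (2.27 ± 0.213, edgeR adjusted p = 6.93e-09). For CNN1, which encodes calponin, the 5 FB libraries lay between 129 and 142 CPM and the 5 TGFb libraries between 427 and 472 (1.76 ± 0.126, edgeR adjusted p = 8.33e-11). Changes were smaller for CALD1, MYL9 and FLNA. CALD1 went from 4574 ± 266 to 8414 ± 406 CPM (0.88 ± 0.23, edgeR adjusted p = 0.00373). The myosin light chain MYL9 went from 1220 ± 53.7 to 2029 ± 161 CPM (0.73 ± 0.21, edgeR adjusted p = 0.00741), and FLNA from 9679 ± 991 to 14321 ± 1215 CPM (0.56 ± 0.176, edgeR adjusted p = 0.0132). These last 3 rises depended on the scaling: with library totals alone MYL9 changed by 0.36 (edgeR adjusted p = 0.15), CALD1 by 0.50 (0.0903) and FLNA by 0.19 (0.419), while the other 7 genes still rose.

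**Figure D1:**
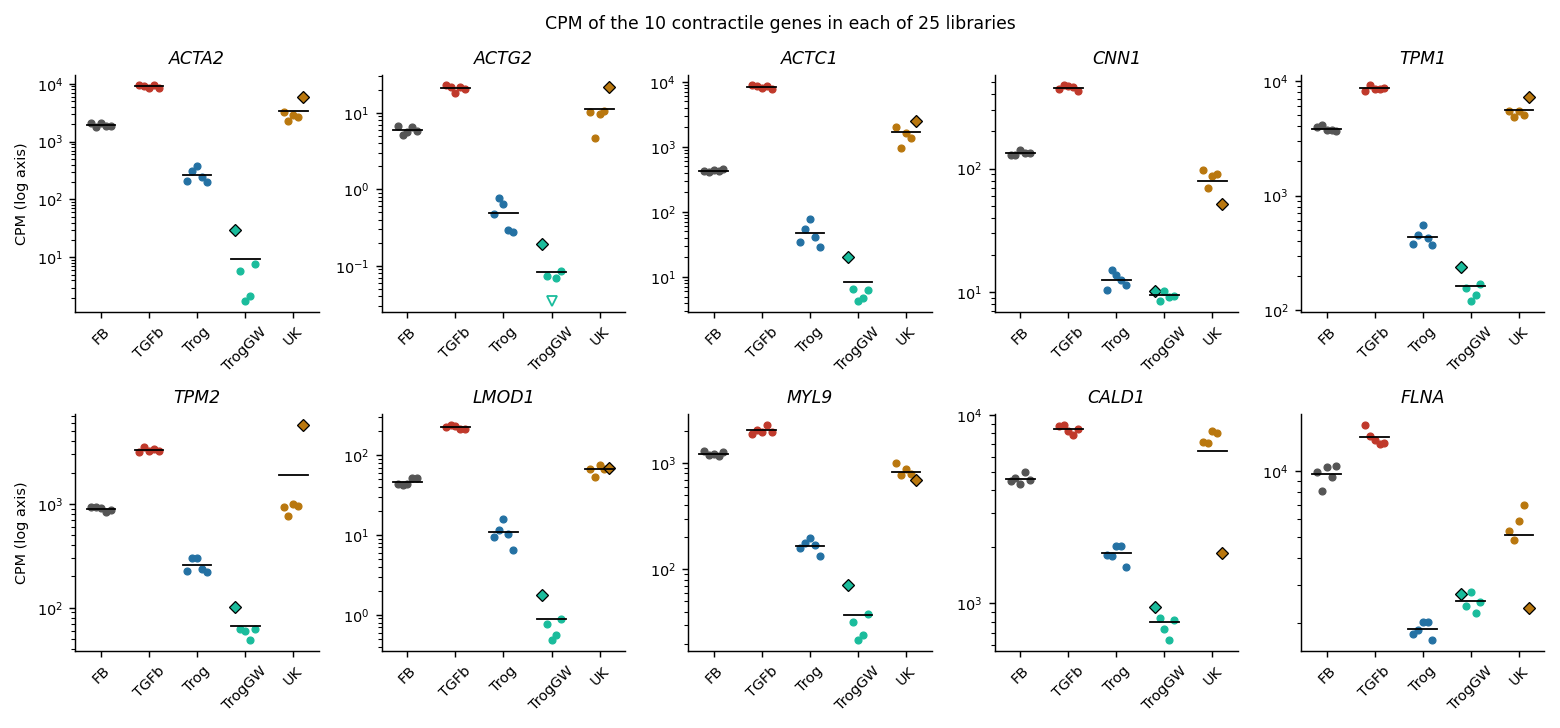
CPM (log axis) of each contractile gene in each of the 25 libraries, by group; a bar is the group mean, diamonds with a black edge are UK replicate 5 and TrogGW replicate 1, and the open triangle marks 0 counts of ACTG2. TGFb has the highest group mean for every gene, and the Trog and TrogGW libraries lie below every FB library.

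At day 5 with troglitazone in place of TGFb1, all 10 genes were lower than in TGFb, by 4.57-fold for CALD1 to 176-fold for ACTC1. In this comparison 29.7% of all genes fell, and the groups did not overlap for the 10 genes, as for 34.3% of all genes in that direction. The median change of the 10 was -4.34 against 0.04 for all genes, and with library totals alone it was -3.66 against 0.73. When UK replicate 5 was left out, 39% of all genes fell and so did the 10.

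ACTA2 stood at 212, 315, 374, 249.7 and 198 CPM in the Trog libraries, where it had been at 8498 CPM or more in TGFb, a change of -5.06 ± 0.542 (edgeR adjusted p = 1.97e-08). ACTC1 stood at 33.9, 55.3, 77.1, 41.2 and 29.0 CPM, a change of -7.46 ± 0.433 (edgeR adjusted p = 4.11e-13), and it ranked 11th from the bottom of 10699 genes. ACTG2 was left with 61 counts over the 5 Trog libraries and changed by -5.38 ± 0.342 (edgeR adjusted p = 2.09e-12). The 3 actins thus reached levels below those of every FB library. CNN1 went to 10.4, 15.2, 13.7, 12.5 and 11.4 CPM, a change of -5.16 ± 0.147 (edgeR adjusted p = 3.55e-18). LMOD1 lay between 6.45 and 15.9 CPM (-4.39 ± 0.234, edgeR adjusted p = 9.28e-14). The thin filament genes thus ended below FB with the actins. The tropomyosins changed by -4.30 ± 0.169 for TPM1 and -3.69 ± 0.429 for TPM2, with means of 436 ± 76.1 and 257 ± 40.3 CPM. MYL9 changed by -3.60 ± 0.232, to 167 ± 23.2 CPM. FLNA lay between 1667 and 2033 CPM (-2.94 ± 0.189, edgeR adjusted p = 2.56e-12) and CALD1 between 1566 and 2026 CPM (-2.19 ± 0.239, edgeR adjusted p = 2.58e-08).

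With troglitazone and GW9662 together, the 10 genes were again all lower than in TGFb, by 5.68-fold for FLNA to 979-fold for ACTC1. Of all genes 31.3% fell here, and 39.3% without UK replicate 5, when the 10 fell as well. The groups did not overlap for any of the 10, as for 35.2% of all genes in that direction. The median change of the 10 was -5.73 against 0.09 for all genes. ACTC1, ACTA2, LMOD1 and ACTG2 ranked 5th, 6th, 17th and 19th from the bottom of all tested genes.

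ACTA2 stood at 29.5, 5.85, 1.75, 2.19 and 7.66 CPM in TrogGW, a change from TGFb of -9.91 ± 0.672 (edgeR adjusted p = 4.87e-12). Replicate 1 was highest, at several times the others, and without it the change was -11.02 ± 0.495. ACTC1 stood at 20.5, 6.59, 4.26, 4.76 and 6.39 CPM, again with replicate 1 on top (-9.94 ± 0.481, edgeR adjusted p = 9.56e-15). Without that library its change was -10.56 ± 0.38, and ACTA2 rather than ACTC1 had the largest change of the 10. ACTG2 had 11 counts in all over the 5 TrogGW libraries and 0 in replicate 3, where up to 3 counts, or 0.12 CPM, would be compatible with that 0 by counting error alone. Its change of -7.86 ± 0.427 (edgeR adjusted p = 7.91e-14) rests on those few counts. LMOD1 stood at 1.76, 0.777, 0.478, 0.555 and 0.888 CPM (-7.98 ± 0.287, edgeR adjusted p = 5.13e-17). The other genes differed from TGFb by less: MYL9 changed by -5.75 ± 0.257, TPM1 by -5.71 ± 0.181, TPM2 by -5.63 ± 0.471, CNN1 by -5.58 ± 0.15, CALD1 by -3.40 ± 0.251 and FLNA by -2.51 ± 0.186. The highest edgeR adjusted p among these 6 was 2.06e-10.

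With UK-5099 the picture was more mixed: 8 of the 10 genes were lower than in TGFb, against 22.5% of all genes. The groups did not overlap for 7 of the 10, as for 18.7% of all genes in that direction. The median change was -1.35 against 0.09 for all genes. Of the 50 values of these genes in UK libraries, only that of CALD1 in UK replicate 5 lay within the range of the Trog libraries. Without UK replicate 5, 9 of the 10 fell, against 35% of all genes.

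CNN1 stood at 97, 69.6, 86.8, 90.6 and 51.3 CPM in UK, below every FB library, and changed from TGFb by -2.52 ± 0.13 (edgeR adjusted p = 1.5e-13). ACTC1 stood at 2043, 965, 1657, 1379 and 2531 CPM, between FB and TGFb (-2.28 ± 0.342, edgeR adjusted p = 5.97e-06). LMOD1 stood at 68.1, 53.6, 74.6, 67.2 and 69.9 CPM, also between them (-1.76 ± 0.209, edgeR adjusted p = 1.88e-07). ACTA2, the myofibroblast marker, stood at 3235, 2305, 2848, 2696 and 5958 CPM and changed by -1.40 ± 0.465 (edgeR adjusted p = 0.0151), and by -1.70 ± 0.361 (0.000124) without UK replicate 5. FLNA changed by -1.50 ± 0.179, MYL9 by -1.30 ± 0.212 and TPM1 by -0.62 ± 0.149, each with an edgeR adjusted p of 0.0012 or less. ACTG2 changed by -0.90 ± 0.262 (edgeR adjusted p = 0.00631), although its 21.6 CPM in replicate 5 lay within the TGFb range; in a fit of only the UK and TGFb libraries its adjusted p was 0.0608.

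The call of TPM2 turned on UK replicate 5, whereas CALD1 was not called with or without that library. TPM2 stood at 931, 763, 992, 953 and 5794 CPM in UK, so that replicate 5 lay above every TGFb library and the other 4 below all of them. Its change from TGFb was -0.81 ± 0.388 (edgeR adjusted p = 0.0855), and -1.86 ± 0.134 (2.66e-13) without replicate 5. CALD1 stood at 7167, 7064, 8202, 8021 and 1862 CPM, with replicate 5 far below the rest and the others near the TGFb range. Its change was -0.38 ± 0.229 (edgeR adjusted p = 0.174), and -0.14 ± 0.0956 (0.183) without replicate 5.

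**Figure D2:**
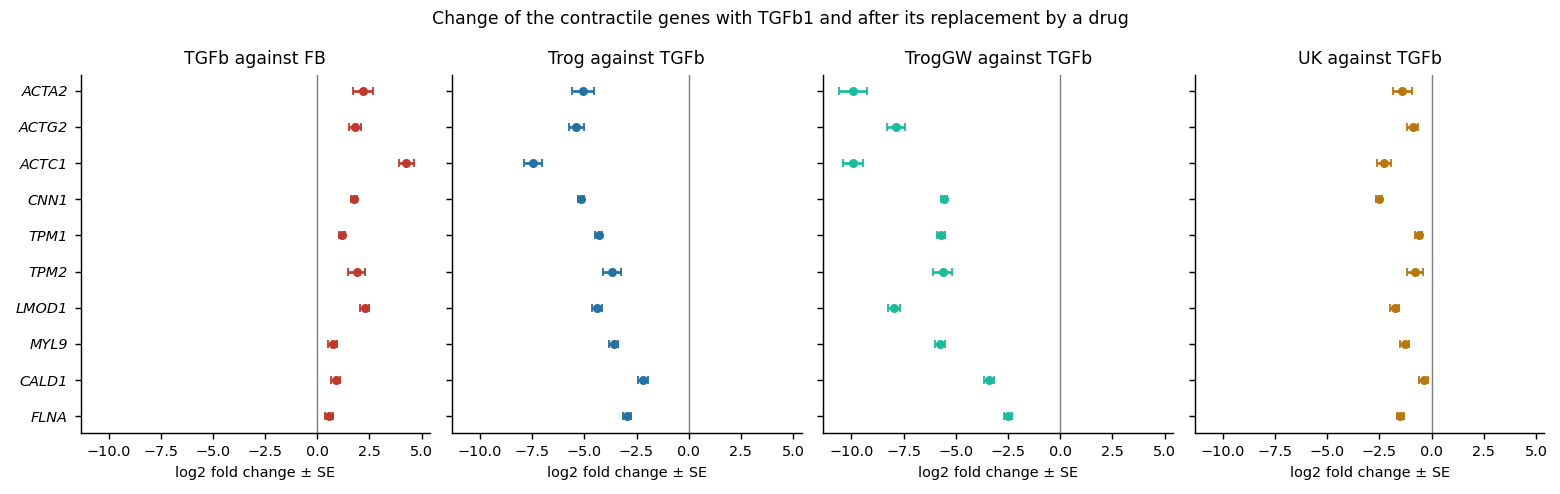
Log2 fold change ± SE of each contractile gene in TGFb against FB and in Trog, TrogGW and UK against TGFb, on 1 shared axis. All 10 genes lie above 0 in the left panel; ACTC1 lies at -7.46 with troglitazone, at -9.94 with GW9662 added and at -2.28 with UK-5099.

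**Figure D3:**
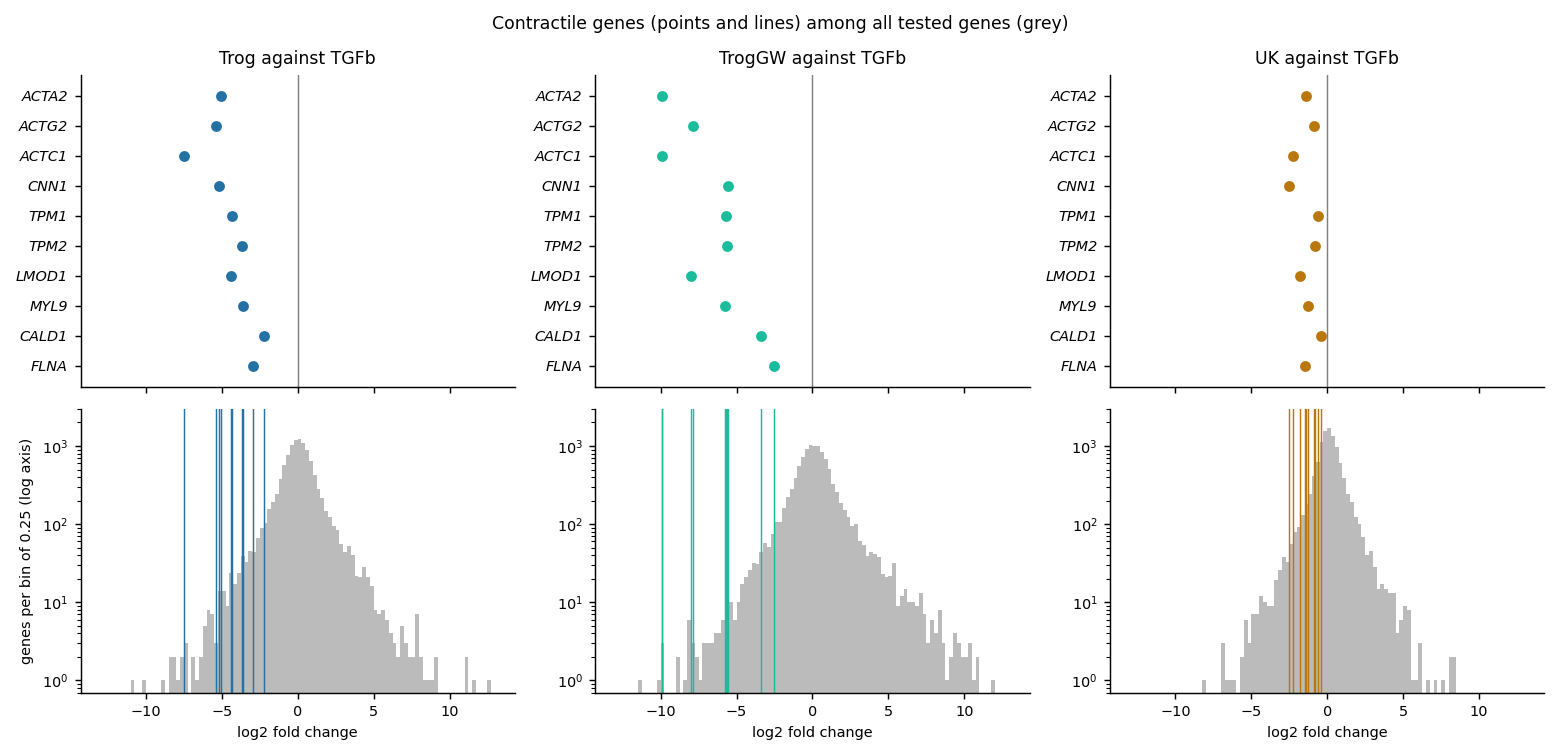
Log2 fold changes against TGFb of the contractile genes (points above, lines below) and histograms of all 10699 tested genes in bins of 0.25 (grey, log axis). The contractile genes lie in the lower tail with troglitazone, with medians of -4.34 in Trog and -5.73 in TrogGW, and closer to the bulk in UK, at -1.35.

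Adding GW9662 to troglitazone, at the same day and troglitazone dose, went with lower levels of 9 of the 10 genes, against 20.4% of all genes that fell between these groups (without UK replicate 5, 35.4% of all genes fell and 9 of the 10 did). The groups did not overlap for those 9, as for 26.9% of all genes in that direction. The median change of the 10 was -2.05 against 0.01. FLNA was the exception, with a higher mean in TrogGW.

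ACTA2 changed by -4.85 ± 0.542 (edgeR adjusted p = 1.21e-07), from the 198 to 374 CPM of the Trog libraries to the 1.75 to 29.5 CPM of the TrogGW libraries. It ranked 5th from the bottom of all tested genes, and its change was -5.96 ± 0.402 without TrogGW replicate 1. LMOD1 ranked 24th from the bottom and changed by -3.60 ± 0.252 (edgeR adjusted p = 6.67e-11). ACTC1 changed by -2.48 ± 0.351 (edgeR adjusted p = 3.64e-06), and by -3.11 ± 0.274 without TrogGW replicate 1. For ACTG2, the change of -2.48 ± 0.57 (edgeR adjusted p = 0.00103) compared 61 with 11 counts over 5 libraries each. The summed actins changed by -4.14 ± 0.438 (edgeR adjusted p = 5.07e-08). MYL9 changed by -2.15 ± 0.219, TPM2 by -1.94 ± 0.4, TPM1 by -1.41 ± 0.151 and CALD1 by -1.21 ± 0.232, with an edgeR adjusted p of 0.000344 or less. Calponin and filamin departed from the others. CNN1 stood at 10.2, 8.47, 10.2, 9.06 and 9.35 CPM in TrogGW, just under the 10.4 to 15.2 CPM of Trog, and changed by -0.42 ± 0.128 (edgeR adjusted p = 0.0104), a call that ended with library totals alone (-0.25, 0.175). FLNA stood at 1779, 1855, 2021, 2033 and 1667 CPM in Trog and at 2726, 2394, 2785, 2219 and 2493 CPM in TrogGW. Every TrogGW library was above every Trog library, as for 27.3% of all genes, but the change of 0.43 ± 0.176 missed the threshold (edgeR adjusted p = 0.0512). Without UK replicate 5, which is in neither group, it was a rise of 0.43 ± 0.0984 (0.000326), where 36.2% of all genes rose.

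**Figure D4:**
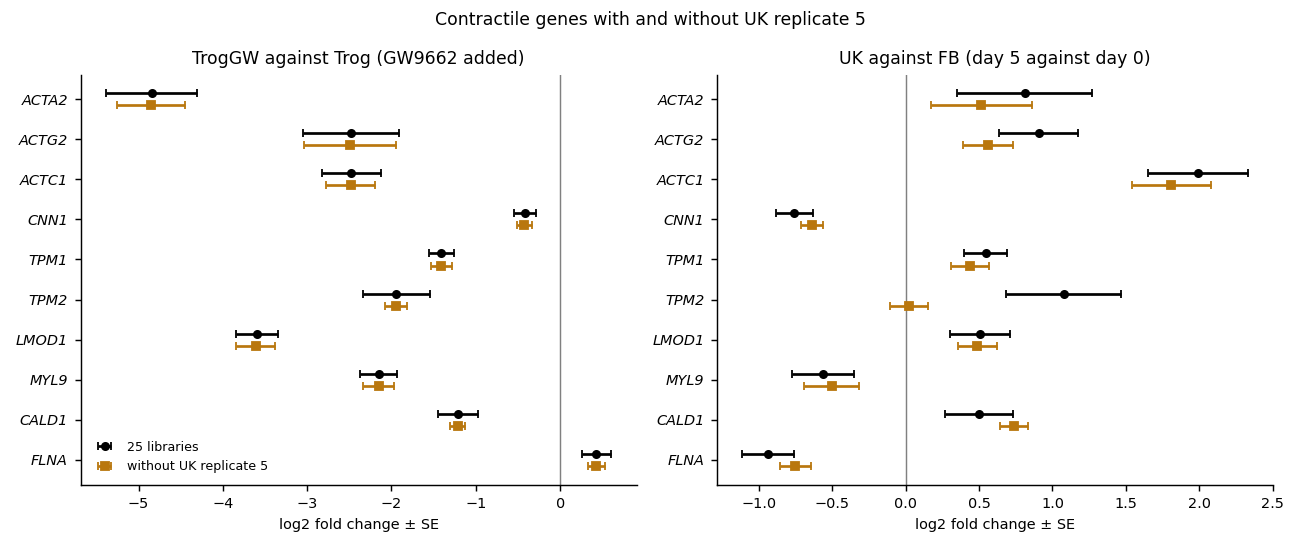
Log2 fold change ± SE of each contractile gene in TrogGW against Trog (left) and UK against FB (right), with all 25 libraries (circles) and without UK replicate 5 (squares). On the left, ACTA2 lies at -4.85 and FLNA at 0.43; on the right, TPM2 moves from 1.08 to 0.02 without that library.

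Set beside the untreated cells of day 0, both troglitazone groups lay below FB for all 10 genes. All 10 fell in Trog (31.5% of all genes fell) and all 10 in TrogGW (33.6%), with no overlap between groups, as for 35.9% and 37.5% of all genes in that direction. The median change of the 10 was -2.86 in Trog and -4.78 in TrogGW, against 0.00 and 0.03 for all genes. ACTA2 changed by -2.85 ± 0.49 in Trog and by -7.69 ± 0.615 in TrogGW (-8.80 ± 0.455 without TrogGW replicate 1), and CALD1 by -1.31 ± 0.232 and -2.52 ± 0.242. LMOD1 changed by -2.12 ± 0.214 in Trog and -5.71 ± 0.265 in TrogGW, and CNN1 by -3.40 ± 0.136 and -3.82 ± 0.139. These comparisons share the FB libraries.

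UK cells lay on both sides of FB. Of the 10 genes, 5 rose (30% of all genes rose) and 3 fell (26.5% of all genes fell). Without UK replicate 5, 5 rose and 3 fell as well (38.6% and 39.1% of all genes), with CALD1 in place of TPM2 among the rises. The groups did not overlap for 4 of the 10 upward, as for 17.2% of all genes. ACTC1 was higher in every UK library than in every FB library (1.99 ± 0.339, edgeR adjusted p = 2.31e-05). TPM1 stood at 4819 to 7183 CPM against 3665 to 4077 (0.55 ± 0.148, edgeR adjusted p = 0.00319). ACTG2 changed by 0.91 ± 0.269 (edgeR adjusted p = 0.00623), although UK replicate 2, at 4.66 CPM, lay below every FB library and the other 4 above all of them. LMOD1 changed by 0.51 ± 0.204 (edgeR adjusted p = 0.0388), a call that ended when any of 6 other libraries was left out (adjusted p up to 0.0816). The fifth rise was that of TPM2 (1.08 ± 0.39, edgeR adjusted p = 0.0222), and without UK replicate 5 its change was 0.02 ± 0.127 (0.867). FLNA, CNN1 and MYL9 fell below FB, with no overlap, as for 20.5% of all genes in that direction. FLNA stood at 5278, 4830, 5896, 6993 and 2337 CPM (-0.93 ± 0.177, edgeR adjusted p = 8.88e-05), CNN1 changed by -0.76 ± 0.124 (1.4e-05) and MYL9 by -0.56 ± 0.21 (0.0258). Without UK replicate 2 the call of MYL9 ended (adjusted p = 0.0514). ACTA2 was above FB in all 5 UK libraries but did not pass the test (0.81 ± 0.46, edgeR adjusted p = 0.137). It did so without TrogGW replicate 1 (0.81 ± 0.291, 0.0218), and the summed actins did so with all libraries (1.11 ± 0.388, 0.0179). CALD1 changed by 0.50 ± 0.229 (edgeR adjusted p = 0.0676), and by 0.74 ± 0.095 (4.01e-08) without UK replicate 5.

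Between the drug groups at day 5, all 10 genes were higher with UK-5099 than with troglitazone, alone (32.9% of all genes rose) or with GW9662 (32.9%). The groups did not overlap for 9 of the 10 in each comparison, as for 20.9% and 22.5% of all genes in that direction; the exceptions were CALD1 against Trog and FLNA against TrogGW, through UK replicate 5. The median change was 2.76 against Trog and 4.95 against TrogGW, and ACTA2 changed by 3.66 ± 0.508 and 8.51 ± 0.636, the latter being 9.62 ± 0.47 without TrogGW replicate 1. UK-5099 and troglitazone were given at different doses. For FLNA against TrogGW, the change of 1.01 ± 0.177 (edgeR adjusted p = 2.74e-05) was 0.41 with library totals alone (0.0564).

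Ordered by group mean, 7 genes had the same sequence from TGFb through UK, FB and Trog down to TrogGW. CNN1 and MYL9 had FB above UK, and FLNA had FB above UK and TrogGW above Trog. Most neighbours in these orders differed by the test. The neighbours that did not were UK and FB for ACTA2, TGFb and UK for TPM2, both TGFb and UK and UK and FB for CALD1, and TrogGW and Trog for FLNA. Without UK replicate 5, the neighbours that did not differ were UK and FB for ACTA2 and TPM2 and TGFb and UK for CALD1.

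The spread within groups was uneven. For ACTA2 the coefficient of variation was 7.5% in FB, 4.74% in TGFb, 27.3% in Trog, 123% in TrogGW and 42.9% in UK. Without TrogGW replicate 1 and UK replicate 5 the last of these were 65.6% and 13.9%. TrogGW replicate 1 lay above the other 4 TrogGW libraries for 8 of the 10 genes, from 1.26-fold their mean for CALD1 to 6.75-fold for ACTA2, and inside their range for CNN1 and FLNA. Among all tested genes 28.5% lay above the range of the other 4 libraries there and 30% below. UK replicate 5 split the set. It was above the other UK libraries for ACTA2 (2.15-fold their mean), ACTG2 (2.45-fold), ACTC1 (1.67-fold), TPM1 (1.38-fold) and TPM2 (6.37-fold), and below them for CALD1 (4.09-fold lower), FLNA (2.46-fold), CNN1 (1.68-fold) and MYL9 (1.24-fold). LMOD1 was inside their range. Of all tested genes 44.2% lay above the other UK libraries and 45.6% below in this library, which also had the lowest total count of the 25.

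**Figure D5:**
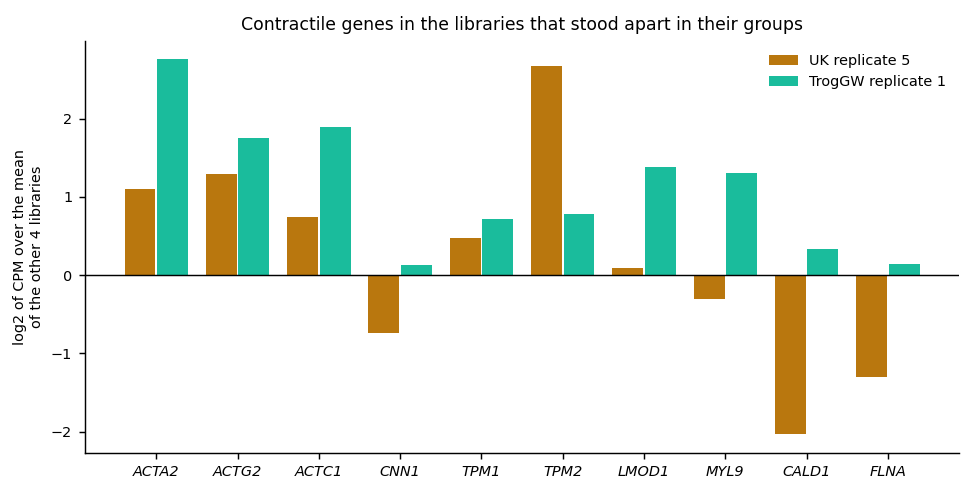
Log2 ratio of the CPM of each contractile gene in UK replicate 5 and TrogGW replicate 1 to the mean of the other 4 libraries of the same group. TrogGW replicate 1 is high for the actins, with ACTA2 at 6.75-fold, whereas UK replicate 5 is high for TPM2, at 6.37-fold, and low for CALD1.

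Across the 25 libraries the 10 genes varied together, with pairwise Pearson correlations of log2 CPM from 0.712 to 0.992 and a median of 0.947 over 45 pairs. These points share the 5 groups and are given as a description only. LMOD1 followed ACTA2 most closely (r = 0.99) and FLNA least (r = 0.712). Outside the set, the genes with the pattern most like that of ACTA2 were the potassium-chloride cotransporter SLC12A4 (r = 0.988), the guidance ligand SLIT3 (0.988), the calcium-binding CASQ1 (0.987), GGT7 (0.986), the matrix protein FBLN2 (0.985) and the exocyst subunit EXOC6 (0.984). SLIT3, for example, stood at 401 ± 28.9 CPM in FB, 876 ± 65.4 in TGFb, 230.1 ± 25.9 in Trog, 58.9 ± 23.8 in TrogGW and 643 ± 65.2 in UK. The genes most like the mean of the 10 were the glycosyltransferase GALNT2 (r = 0.992), the vitamin K-dependent carboxylase GGCX (0.989), EXOC6 (0.987), the actin capping subunit CAPZB (0.987), the sterol enzyme MSMO1 (0.986) and the procollagen protease ADAMTS2 (0.985).

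Other genes of the apparatus moved less uniformly. In the list of the myosin motor, its light chains, kinases and phosphatase, all 17 members in the files were tested. In TGFb against FB, 2 rose and 2 fell, where 18% of all genes rose and 20.2% fell. Without UK replicate 5 these were 9 and 3, where 31.7% of all genes rose and 34.3% fell. The kinase gene CAMK2G rose (0.89 ± 0.182). Against TGFb, 5 rose and 7 fell in Trog (32.9% and 29.7% of all genes), 2 rose and 10 fell in TrogGW (38.1% and 31.3%), and 1 rose and 7 fell in UK (28% and 22.5%). The direction depended on scaling: with library totals alone 9 rose and 5 fell in Trog and 8 rose and 7 fell in TrogGW. Among all genes called under that scaling, 6831 of 8210 rose in Trog and 7502 of 8834 in TrogGW. RHOA, the GTPase that promotes contraction, changed by -1.48 ± 0.106 in Trog and -1.76 ± 0.107 in TrogGW.

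The smooth muscle myosin heavy chain MYH11 did not fall where the 10 genes fell. It stood at 108 ± 5.66 CPM in FB, 130.4 ± 6.76 in TGFb, 159 ± 11.7 in Trog, 157 ± 11.3 in TrogGW and 162 ± 57.1 in UK. Its changes against TGFb were 0.29 ± 0.183 in Trog (edgeR adjusted p = 0.178), 0.26 ± 0.183 in TrogGW (0.203) and 0.31 ± 0.183 in UK (0.166), and without UK replicate 5 these were rises, with adjusted p of 8.31e-05 or less. MYLK, the kinase that phosphorylates the regulatory light chain, stood at 141 ± 13.9 CPM in TGFb, 109.7 ± 10.4 in Trog and 20.5 ± 7.57 in TrogGW. In Trog its change of -0.37 ± 0.319 did not pass the test (edgeR adjusted p = 0.328; 0.00975 without UK replicate 5). It fell in TrogGW (-2.78 ± 0.341, edgeR adjusted p = 1.36e-07), and between TrogGW and Trog it changed by -2.42 ± 0.337 (2.84e-06).

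Of the other smooth muscle and thin filament genes, 24 were in the files and 21 were tested. In TGFb against FB 10 rose and 5 fell (18% and 20.2% of all genes). With library totals alone 6 rose and 8 fell, where 810 of the 5845 called genes rose and the rest fell. The LIM protein gene CSRP2 (3.76 ± 0.248) and the potassium channel subunit KCNMB1 (2.02 ± 0.221) rose, and the integrin ITGA8 fell (-1.52 ± 0.133). Against TGFb, 2 rose and 16 fell in Trog (32.9% and 29.7% of all genes), 4 rose and 16 fell in TrogGW (38.1% and 31.3%), and 2 rose and 16 fell in UK (28% and 22.5%). PDLIM7 changed by -3.14 ± 0.103 in Trog and -3.69 ± 0.105 in TrogGW, and CSRP1 by -2.90 ± 0.1 and -3.13 ± 0.101. Between TrogGW and Trog 5 rose and 9 fell (22.8% and 20.4% of all genes), with KCNMB1 at -2.33 ± 0.23. TAGLN, the gene of the smooth muscle protein SM22, was not analysed here.

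The cytoskeletal actins, actinins, other filamins and actin turnover genes numbered 24 in the files, all of them tested. In TGFb against FB, where 18% of all genes rose and 20.2% fell, 5 rose and 2 fell. Without UK replicate 5 these were 14 and 3 (31.7% and 34.3% of all genes). With library totals alone, however, 0 rose and 9 fell, where 810 of the 5845 called genes rose and the rest fell. Against TGFb, 22 of 24 fell in Trog (29.7% of all genes), 22 in TrogGW (31.3%) and 19 in UK (22.5%), and 0, 1 and 1 rose (32.9%, 38.1% and 28%). ACTB, the cytoplasmic beta actin, changed by 0.59 ± 0.186 in TGFb against FB (edgeR adjusted p = 0.0146), by -1.84 ± 0.191 in Trog and by -1.52 ± 0.19 in TrogGW against TGFb. In UK its change of -0.18 ± 0.186 did not pass the test (edgeR adjusted p = 0.441; 5.71e-07 without UK replicate 5). FSCN1, which bundles actin in protrusions, went the other way in TrogGW, at 1.57 ± 0.112.

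Among SRF, MRTF, TEAD and other regulators, 26 were in the files and 25 were tested. In TGFb against FB 5 rose and 4 fell (18% and 20.2% of all genes). Without UK replicate 5 these were 10 and 7 (31.7% and 34.3% of all genes). Against TGFb, 6 rose and 10 fell in Trog (32.9% and 29.7% of all genes), 7 rose and 9 fell in TrogGW (38.1% and 31.3%), and 3 rose and 9 fell in UK (28% and 22.5%). Against FB, 4 rose and 11 fell in Trog (32.4% and 31.5% of all genes) and 5 rose and 13 fell in TrogGW (36.2% and 33.6%). With library totals alone the direction turned in Trog and TrogGW, with 14 rising and 4 falling in each against TGFb. Against FB, 9 then rose and 7 fell in Trog, and 10 and 5 in TrogGW. This turn was shared by the genes at large. Under that scaling 6831 of 8210 called genes rose in Trog against TGFb and 7502 of 8834 in TrogGW. Against FB, 4913 of 7204 called genes rose in Trog and 5864 of 7931 in TrogGW. The coactivator MRTFA changed as the contractile genes did, by 1.14 ± 0.0885 in TGFb against FB (edgeR adjusted p = 3.2e-10) and by -1.92 ± 0.0905 in Trog, -1.76 ± 0.09 in TrogGW and -0.43 ± 0.0875 in UK against TGFb. SRF itself changed by 0.49 ± 0.115 in TGFb against FB, and by -0.79 ± 0.115, -1.11 ± 0.116 and -0.51 ± 0.115 against TGFb in Trog, TrogGW and UK. Between TrogGW and Trog, where ACTA2 differed by 4.85, MRTFA changed by 0.16 ± 0.0877 (edgeR adjusted p = 0.161; 0.0451 without UK replicate 5) and SRF by -0.32 ± 0.115 (0.0272). MRTFB passed the test in none of these comparisons, with edgeR adjusted p from 0.146 to 0.832, but rose in TrogGW and UK without UK replicate 5 (adjusted p = 8.98e-06 and 2.71e-10). MYOCD, the smooth muscle coactivator myocardin, had at most 16 counts in a library and fell in UK against TGFb (-2.93 ± 0.721, edgeR adjusted p = 0.00162). KLF4, a repressor of smooth muscle genes, changed by -0.93 ± 0.148 in TGFb against FB, by 0.82 ± 0.148 in Trog and by 0.39 ± 0.147 in TrogGW against TGFb. Between TrogGW and Trog KLF4 fell (-0.42 ± 0.147, edgeR adjusted p = 0.0225), and in UK against TGFb its change was -0.28 ± 0.147 (0.116; 1.3e-08 without UK replicate 5).

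The markers of other cell types were read beside these levels. Of the pericyte and vascular smooth muscle list, 9 of 11 markers were in the files and 5 were tested. KCNJ8 and HIGD1B, markers of pericytes, were at 0 in every library, but others of the list were counted. CSPG4 had means of 38.1 CPM in FB, 44.8 in TGFb, 2.81 in Trog, 1.29 in TrogGW and 2.62 in UK. NDUFA4L2 had 15.3, 34.4, 10.2, 6.99 and 7.48 CPM in that order. DES and ABCC9 had their highest means in TrogGW, at 1.98 and 0.22 CPM, and PLN in FB, at 0.648. The summed level of the list was 210 to 244 CPM in FB, 302 to 366 in TGFb, 179 to 209 in Trog, 181 to 203 in TrogGW and 115 to 294 in UK, and MYH11 and NOTCH3 made up a large part of it. NOTCH3, a receptor of mural cells, went from 65.2 ± 6.52 CPM in FB to 132 ± 13.3 in TGFb and 21.7 ± 3.76 in Trog. The summed level was highest in TGFb, and its part in the levels of the contractile genes was not tested. Of the fibroblast list, 9 of 12 markers were in the files, with a summed level of 69875 to 85235 CPM in FB, 100878 to 120986 in TGFb, 2855 to 4772 in Trog, 1288 to 3038 in TrogGW and 91493 to 134490 in UK. This sum consisted mostly of the collagens COL1A1 and COL1A2 and was lower in the troglitazone groups, as the contractile genes were. Other markers of the list differed: DCN had means of 368 CPM in FB, 583 in TGFb, 579 in Trog, 218 in TrogGW and 1151 in UK, and PDGFRA had 131, 146, 88.3, 198 and 245. LUM had means of 189, 859, 243, 64.8 and 3669 CPM. The part of these markers in the results was not tested. Of the epithelial list, 6 of 10 markers were in the files, with a summed level of 9.88 to 24.5 CPM over all libraries. EPCAM had a mean of 9.24 CPM in FB and 1.39 to 5.14 in the other groups, and PAX6 had 2.08 in TrogGW. KLF5 was highest in TGFb, with means of 6.90 CPM in FB, 18.0 in TGFb, 12.7 in Trog, 11.3 in TrogGW and 11.5 in UK. The part of this list in the results was not tested. All 8 markers of the corneal endothelial list were in the files. Their summed level had medians of 2055 CPM in FB, 2527 in TGFb, 1558 in Trog, 1618 in TrogGW and 2126 in UK. For the vascular endothelial list, with 7 of 7 in the files, the medians were 72.1, 86.6, 81.4, 104 and 172 CPM in that order. Its marker ERG had means of 62.5, 78.4, 55.4, 51.1 and 132 CPM. KDR differed from it and was highest in TrogGW, with means of 9.49, 7.23, 20.6, 47.0 and 11.0 CPM. The part of these 2 lists in the results was not tested. Of the immune list, 7 of 7 were in the files, with a summed level of 10.5 to 13.2 CPM in FB, 19.7 to 27.8 in TGFb, 31.5 to 38.4 in Trog, 24.6 to 28.7 in TrogGW and 25.8 to 38.6 in UK, most of it CD68. CSF1R, a receptor of macrophages, had a mean of 0.152 CPM in TGFb, 5.81 in Trog, 4.44 in TrogGW and 6.33 in UK, and the part of these genes in the results was not tested. The epithelial keratins KRT3 and KRT12, the leukocyte genes PTPRC and AIF1 and the muscle regulators MYOG, MYF5 and PAX7 were at 0 in every library. Other striated muscle markers were not. The muscle regulator MYOD1 had 7 counts over the TrogGW libraries, at most 0.169 CPM, and 0 in the other groups. CKM had 17 counts in UK, 3 in FB, 3 in TGFb, 1 in Trog and 0 in TrogGW.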

How the data were processed

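Libraries of polyadenylated RNA were made with a strand-marking kit, per the labels' protocols. The authors deposited 1 table of raw integer read counts per gene symbol for each of the 25 libraries. Tools listed in the submitters' processing notes are STAR 2.7.9a, Salmon 1.5.2, fastp 0.23.1, and featureCounts of Subread 2.0.1, in no stated order. Genome build, annotation, strand setting and the handling of reads with several matches are not given in the sources used here. TPM2, LMOD1, CALD1 and FLNA overlap other annotated genes.

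The tests used edgeR 4.0.16 under R 4.3.3. A single model, with TMM factors and a mean for each group, covered the 25 libraries after the filter filterByExpr (minimum count 10, minimum total 15). Its quasi-likelihood F test gave 10 comparisons, without a replicate block, adjusted over 10699 genes. Each SE was obtained by dividing the size of the log2 change by the root of its F value. Same-numbered libraries showed little joint deviation from their group means (correlations -0.187 to 0.328 over 50 pairs, 6 over 0.1), so numbers were not taken as pairs. The highest values were those of replicate 4 in Trog and UK (0.328) and in FB and UK (0.248). UK replicate 5 was kept in this check and weighed on the UK mean, so the check cannot exclude pairs. No 2 libraries of a group agreed within sampling noise (chi-square per degree of freedom at least 3.29). The members and the gene lists were chosen with earlier results of these data known. The lists give counts, and their genes named are up to 2 with the lowest p in each direction plus 10 regulators, of which ACTG1 and TAGLN were not analysed here. A result for 1 gene of the myosin list is not reported here. Likeness is Pearson's r of log2 CPM with a prior count of 2. Alternatives were DESeq2 1.42.0, limma 3.58.1 (voom), other scaling and filters, only the 2 groups compared, a replicate block, summed actins and each library left out. On simulated counts of TGFb against FB over 10043 genes, 75 of 100 genes set to a 2-fold change and 49 of 100 set to 1.5-fold were recovered, and 6 of 9843 unchanged genes were called. Figures were drawn with matplotlib 3.10.9.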

Additional observations from a re-analysis of the deposited data

Results flagged for a closer look

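In 7 of the 50 combinations of a contractile gene and a group, 1 library lay apart from the other 4: its gap to the nearest of them, over the whole range of the group, exceeded Dixon's 95% critical value of 0.71. Among independent groups of normal values, chance alone flags about 1 in 20. The 50 combinations share libraries and the genes vary together, so the count of 7 cannot be measured against that rate. TrogGW replicate 1 was the high library in 3 cases. For ACTA2 the ratio of gap to range was 0.787 (29.5 CPM against 1.75 to 7.66 in the others), for ACTC1 it was 0.857 (20.5 against 4.26 to 6.59) and for TPM2 it was 0.725 (101 against 48.5 to 62.8). UK replicate 5 was the library apart in the other 4. It was high for ACTA2, with a ratio of 0.746 (5958 CPM against 2305 to 3235), for TPM1, with 0.723 (7183 against 4819 to 5473), and for TPM2, with 0.955 (5794 against 763 to 992). It was low for CALD1, with 0.821 (1862 against 7064 to 8202).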

How the results depend on the processing

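Over 3289 alternative values of the contractile genes, 3254 kept their direction and side of the threshold, 20 lost the call, 15 gained one and 0 turned direction. Of those that kept both, 2486 came from leaving out 1 library, often one in neither group compared, where little change was possible. With library totals alone 92 kept both, 7 lost the call and 1 gained one. Without UK replicate 5, genes called in TGFb against FB went from 4089 to 7124 and in TrogGW against Trog from 4620 to 7735. Over the libraries left out in turn these counts were 3657 to 7124 and 4176 to 7735. In fits of only the 2 groups they were 7087 and 7312, and in UK against TGFb 3210 in place of 5408. In TrogGW against Trog, the contractile genes that rose were 1 (FLNA) in place of 0 with DESeq2, library totals alone, a minimum count of 50 and only the 2 groups, and 0 to 1 over the libraries left out. In UK against FB, 3 rose in place of 5 with library totals alone and with the replicate block (LMOD1 at 0.50, edgeR adjusted p = 0.0599, and TPM2 at 0.81, 0.0905). With the block TPM2 also fell in UK against TGFb (-1.08, edgeR adjusted p = 0.0299). The block ended or made no other call of the 10 genes. Each library was also compared with the 5 libraries of each other group. In 18 of these 100 comparisons the best correlation was with its own number, where picking 1 of 5 without regard to number gives about 1 in 5. DESeq2 gave no adjusted p for ACTA2 and TPM2, so it counted 8 genes. With library totals alone the share of rises among calls was 13.9% against 47.2% in TGFb against FB, 83.2% against 52.5% in Trog against TGFb, 84.9% against 54.9% in TrogGW against TGFb, 74.2% against 55.4% in UK against TGFb, 69.9% against 52.8% in TrogGW against Trog, 25.1% against 53.8% in UK against Trog, 20.4% against 48.4% in UK against TrogGW, 68.2% against 50.7% in Trog against FB, 73.9% against 51.8% in TrogGW against FB and 41.9% against 53.1% in UK against FB. The median log2 change of all genes then moved by -0.37, 0.68, 0.85, 0.23, 0.17, -0.46, -0.62, 0.31, 0.48 and -0.15 in these comparisons, and the median of the contractile genes was 1.41, -3.66, -4.89, -1.14 and -1.89 in the first 5. Depth limits ACTG2 in TrogGW, with 11 counts, and the split of reads between the actins limits each of them.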

Other observations

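The striated muscle list held 23 genes in the files, of which 13 passed the filter. ACTA1, the skeletal muscle actin, stood at 19.3 ± 2.69 CPM in FB and 408 ± 36.6 in TGFb (4.40 ± 0.2, edgeR adjusted p = 3.39e-14). Against TGFb it changed by -4.39 ± 0.199 in Trog and -4.26 ± 0.198 in TrogGW, to means of 19.5 ± 2.31 and 21.3 ± 2.08 CPM that were near its FB level, and in UK it stood at 204 ± 83.8 CPM (edgeR adjusted p = 4.03e-05). Reads may be shared between ACTA1 and the other muscle actins. TNNT2, the cardiac troponin T gene, rose from 0.819 ± 0.261 CPM in TGFb to 30.6 ± 4.07 in Trog (5.19 ± 0.186, edgeR adjusted p = 8.27e-17) and 14.8 ± 1.78 in TrogGW (4.15 ± 0.183). TMOD1, which caps the slow-growing end of actin filaments, rose in TGFb against FB (2.07 ± 0.193) and again in Trog (1.19 ± 0.165) and TrogGW (2.21 ± 0.167) against TGFb. MYL3 rose in UK against TGFb (2.86 ± 0.296, edgeR adjusted p = 2.26e-08). In the whole list, 5 rose and 4 fell in Trog (32.9% and 29.7% of all genes), 7 rose and 4 fell in TrogGW (38.1% and 31.3%) and 3 rose and 4 fell in UK (28% and 22.5%).

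Between TrogGW and Trog, where 9 of the 10 contractile genes fell, 7 of these 13 genes rose and 1 fell (22.8% and 20.4% of all genes). Some of the rises started near 0, where a fall could hardly be called. ACTN2 went from 0.00746 CPM in Trog to 1.90 in TrogGW and TNNC1 from 0.033 to 1.26. Genes this low in Trog passed the filter only through groups where they were higher. The split of 7 to 1 is therefore given as a description only. The gene that fell was TNNT2 (-1.04 ± 0.142). Outside this list, the non-muscle myosin heavy chain MYH14 rose from 2.75 ± 0.608 to 24.6 ± 5.81 CPM (3.15 ± 0.222, edgeR adjusted p = 7.13e-11). DES, the muscle intermediate filament gene desmin, was low in both groups and changed from 0.3 ± 0.158 to 1.98 ± 0.452 CPM (2.72 ± 0.316, edgeR adjusted p = 2.21e-07).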
